A study of Mus musculus with 8 samples.

Results

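Wnt proteins are secreted, lipid-modified ligands that bind Frizzled receptors at the cell surface. With the co-receptors Lrp5 or Lrp6 they stop a destruction complex of Axin, Apc and Gsk3b from degrading beta-catenin, which then acts with TCF/LEF factors on transcription, whereas receptors such as Ror2 and Ryk carry signals that do not need beta-catenin. In fat precursors, beta-catenin signalling is known to hold back the conversion of preadipocytes into adipocytes. The genes described here were 50 members of this pathway, named by symbol: ligands, the genes that process and secrete them, receptors, extracellular antagonists, cytoplasmic transducers and the TCF/LEF factors. A member's probe sets were those whose platform annotation gave exactly 1 symbol, which 114 probe sets of 49 members did, and Tcf7 had none. Of these, 43 members with 82 probe sets lay in the upper 60% of probe sets by mean signal and were tested, among 13259 tested genes in all.

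The samples compared were Dicer knockout preadipocytes (cells committed to become fat cells but not yet filled with lipid), given an adenovirus that carries Cre recombinase and GFP under the CMV promoter (4 arrays), set against control preadipocytes given an adenovirus with GFP alone (4 arrays). Cells of both groups were subcutaneous, from day 2 newborns on the C57BL/6 background with loxP-flanked alleles of Dicer (Dicer lox/lox), the ribonuclease that releases mature microRNAs, and both received 750 MOI of virus with 4 µg/mL polybrene. RNA was taken 4 days after infection and hybridised to Affymetrix arrays, 1 array per sample. No array is of Cre virus in cells without loxP-flanked Dicer, so effects of Dicer loss and of Cre cannot be told apart in any difference below, and in bulk RNA fewer cells of a type and less RNA per cell cannot be told apart either.

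The median signal was 357.3 to 385.8 on knockout arrays and 321.1 to 418.8 on control arrays, and the number of arrays limits the precision. The Dicer1 probe set read 1158.3, 1190.4, 1403.8 and 1110.1 on knockout arrays 1 to 4 and 1152.7, 1140.7, 2113.7 and 1190.3 on control arrays 1 to 4, with overlapping groups. No source used here says whether it lies in the excised segment, so it does not check the deletion. Same-numbered knockout and control arrays were closest to each other, and the numbers were treated as pairs in a further fit, called the paired fit. Odd-numbered arrays also stood apart from even-numbered ones: the 5′ probe set for 18S ribosomal RNA read 5905.9 to 14007.2 on the odd-numbered and 30583.9 to 43029.9 on the even-numbered arrays of both groups. The summed signal of the 12 tested preadipocyte and stromal markers was 438996.4 to 511820.7 on knockout arrays and 461124.7 to 559163.5 on control arrays, and Pdgfra, Pdgfrb and Dlk1 were among those above the signal filter. The 4 tested fat cell markers of 8 (Fabp4, Pparg, Cebpa and Lpl) summed to 13777.2 to 40601.2 on knockout arrays and 14414.4 to 40283.2 on control arrays, with Adipoq, Cidec and Lep below the filter. Lpl made up most of that sum. Knockout minus control, the log2 differences were 0.06 for Lpl, 0.55 for Fabp4, 0.28 for Pparg and -0.26 for Cebpa. Cebpa was lower in all 4 pairs and Fabp4 higher in 3 of 4, and all 4 genes overlapped between the groups. Among markers of other cell types, the 3 tested of 6 for keratinocytes and epithelium summed to 2116.2 to 3082.5 on knockout arrays and 1803 to 2066.3 on control arrays, with no overlap and with Krt5, Krt14 and Cdh1 below the filter. Most of this sum was Epcam, at 1289.7 to 2134.9 on knockout and 1088.2 to 1405.3 on control arrays. Taken singly, Epcam, Krt8 and Krt18 each overlapped between the groups. The 4 tested skeletal muscle markers of 7 summed to 2677.5 to 3754.8 on knockout arrays and 1893.8 to 3091.4 on control arrays, with overlap. Des, the brightest of them, had a log2 difference, knockout minus control, of 0.03. For Acta1, Ckm and Myod1 it was 0.53, 0.74 and 0.55. Acta1 was higher in all 4 pairs. Taken singly, all 4 genes overlapped between the groups, and Myog, Myf5 and Pax7 were below the filter. Summed ranges also overlapped for macrophages and leukocytes (5 of 10 tested, 3242.7 to 3685.2 on knockout and 3421.6 to 4313.8 on control arrays) and endothelium (3 of 6, 1551.3 to 2382.5 on knockout and 1444.7 to 2130.7 on control arrays). The same held for pericytes (3 of 5, 1896.7 to 2549.6 on knockout and 1830 to 2478 on control arrays) and Schwann and neural cells (2 of 5, 1465.4 to 2111.8 on knockout and 1569.5 to 2588.4 on control arrays). The part of these cell types in the results, including those for Wnt9a and Wnt11 below, was not tested.

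No Wnt pathway member passed the test. With limma (Benjamini-Hochberg over every probe set tested), 0 of 43 members had an adjusted p under 0.05 in the unpaired fit (lowest 0.999), against 0% of all genes, and 0 of 43 in the paired fit (lowest 0.157), against 0.0754%. At an unadjusted p under 0.05 there were 2 of 43 members in the unpaired fit, Wnt9a and Wnt11, against 3.93% of all genes (1.99% higher and 1.94% lower in the knockout). There were 9 of 43 in the paired fit, against 10.3% of all genes (4.96% higher and 5.35% lower). Wnt5a, Wnt9a, Wnt11, Dkk2 and Tcf7l1 had a higher and Rspo3, Sfrp2, Dvl2 and Ctnnb1 a lower knockout mean. A paired p under 0.01 was found in 4 of 43 members (Wnt9a, Wnt11, Sfrp2 and Dkk2), against 3.32% of all genes. In 2 of 43 members all knockout arrays lay above all control arrays (Wnt9a and Wnt11) and in 1 of 43 all lay below (Ctnnb1), against 1.3% and 1.22% of all genes, or 2.52% together. In 3 of 43 members all 4 pairs were above 0 (Wnt9a, Wnt11 and Tcf7l1) and in 3 of 43 all were below 0 (Rspo3, Sfrp2 and Ctnnb1), against 8.64% and 9.47% of all genes. Knockout minus control, the log2 difference was above 0 in 19 members and below 0 in 24, with a median of -0.01, and the median over all tested genes was -0.00201. The absolute log2 difference had a median of 0.101 over the members and 0.116 over all tested genes, and it exceeded 0.5 in 4 members, or 9.3%, against 4.34% of all genes.

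**Figure D1:**
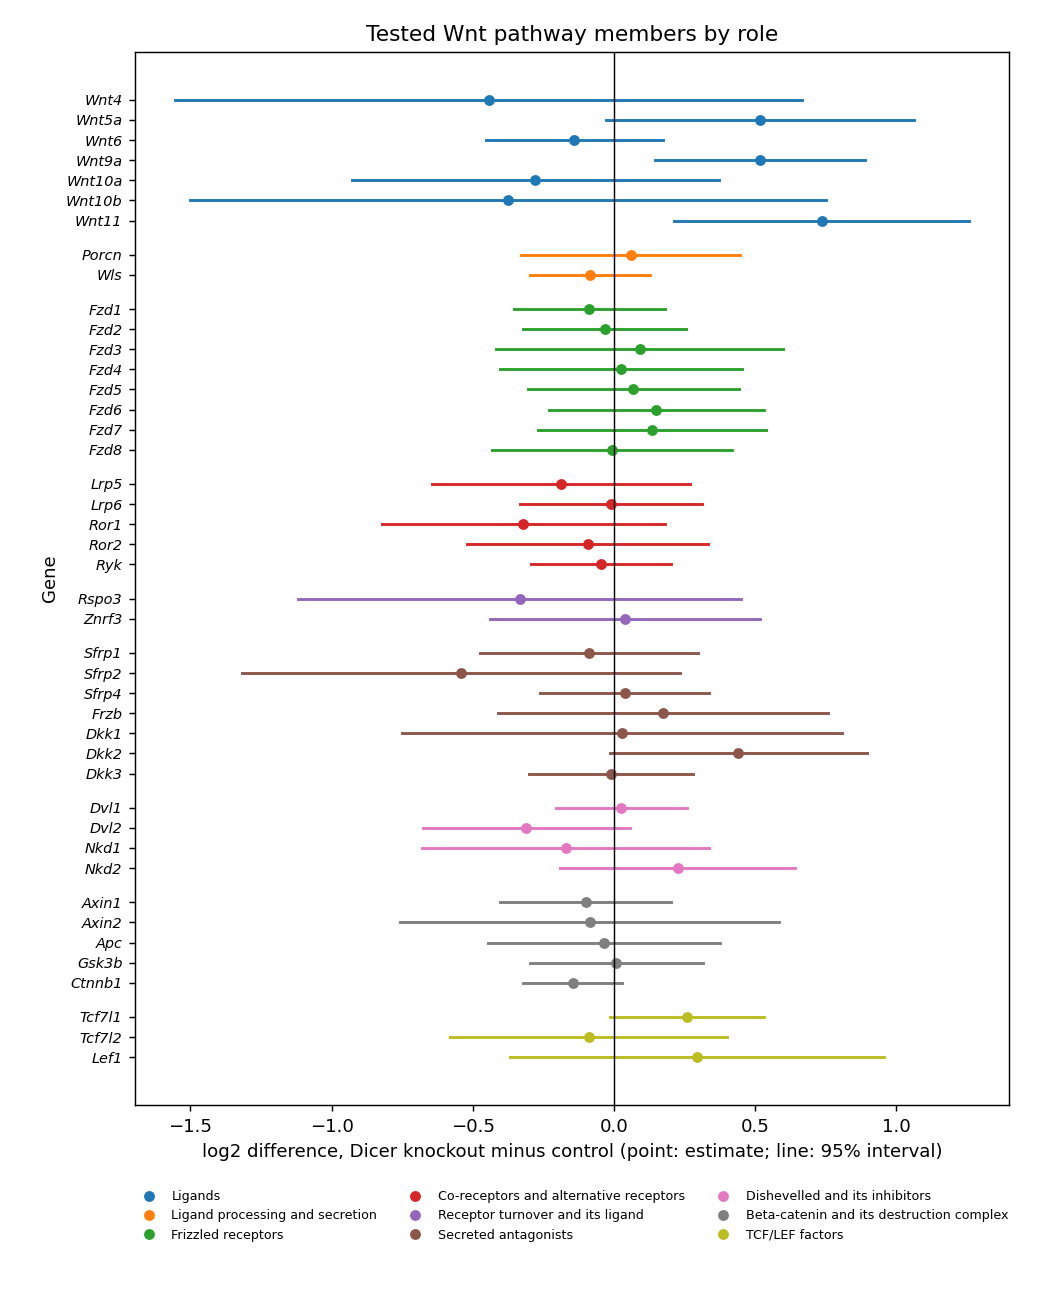
Log2 difference, Dicer knockout minus control, for the 43 tested members, 1 gene per line and coloured by role, with points for the estimates and lines for the 95% intervals of the unpaired limma fit. The intervals of Wnt9a and Wnt11 lie wholly above 0, while those of the other 41 members cross 0.

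Among the 9 Wnt ligands, 7 were tested, with log2 differences from -0.44 to 0.74, 3 above and 4 below 0. Wnt11, a ligand best known for signalling without beta-catenin in cell movement, had the largest difference of any tested member. It read 582.1, 560.9, 446.8 and 532.6 on knockout arrays 1 to 4 and 436.9, 234.6, 324.1 and 200.3 on control arrays 1 to 4. The lowest knockout array, number 3, lay just above the highest control array, number 1, so the groups did not overlap, and all 4 pairs were higher in the knockout. The log2 difference was 0.74 (SE 0.24, 95% interval 0.21 to 1.26, limma adjusted p = 0.999, paired adjusted p = 0.355), and the exact two-sided permutation p was 0.0286, the smallest that 4 against 4 arrays can give.

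The start region of Wnt11 is shown because of that difference, with the letters of the TCF/LEF motif in capitals. It is taken from RefSeq (GRCm38.p6, chr7:98834862-98835161, plus strand), and runs from 250 bases before to 50 after the transcription start:
Wnt11: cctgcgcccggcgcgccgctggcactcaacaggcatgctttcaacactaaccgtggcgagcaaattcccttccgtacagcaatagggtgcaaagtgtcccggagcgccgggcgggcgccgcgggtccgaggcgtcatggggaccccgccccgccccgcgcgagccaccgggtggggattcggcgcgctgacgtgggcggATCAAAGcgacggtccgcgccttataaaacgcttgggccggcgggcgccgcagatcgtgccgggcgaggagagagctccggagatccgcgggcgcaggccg
The motif was searched as CTTTGAA or as CTTTGAT, and also as CTTTGTA or as CTTTGTT, on both strands, with no overlap among matches here. Wnt11 held 1 match, on the opposite strand, starting 51 bases before the transcription start, and the window of its other annotated start held 0. Of the 27 tested members with an entry in the promoter table, 5 held a match (18.5%), as did 18.9% of the 27025 genes in it. A match is a description of these letters only.

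Wnt9a, a ligand with roles in joint and skeletal development, read 843.2, 906.7, 952 and 812.7 on knockout arrays 1 to 4 and 626.8, 709.5, 587.5 and 463.3 on control arrays 1 to 4. Every knockout array lay above every control array, by the narrowest margin between knockout 4 and control 2. The groups differed by 0.52 on the log2 scale (SE 0.17, 95% interval 0.15 to 0.89, limma adjusted p = 0.999, paired adjusted p = 0.347), with an exact permutation p of 0.0286.

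Wnt5a, the prototype of ligands that signal through Ror2, read 1213, 1508.8, 1294.7 and 722.3 on knockout arrays 1 to 4 and 1218.5, 579, 750 and 691.7 on control arrays 1 to 4 at its brightest probe set. Control array 1 stood with the knockout arrays and knockout array 4 with the control arrays, so the groups overlapped. At that probe set the difference was 0.52 on the log2 scale (SE 0.25, limma adjusted p = 0.999), with pair values of -0.01, 1.28, 0.73 and 0.06. The other tested Wnt5a probe sets differed the same way, at 0.39 and 0.31. The one at 0.39 was higher in all 4 pairs, at 0.30, 0.45, 0.36 and 0.46 (limma adjusted p = 0.999, paired adjusted p = 0.417), though its groups overlapped. Its paralogue Wnt5b was below the filter.

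Wnt4 and Wnt10b were dim and scattered within both groups. Wnt4, a ligand of kidney and gonad development, read 670.6, 168.8, 99.8 and 118.9 on knockout arrays and 225.9, 376, 119.3 and 718.5 on control arrays, a log2 difference of -0.44 (SE 0.51). Wnt10b, a ligand known to restrain adipogenesis, read 473.7, 341.6, 84.4 and 288.8 on knockout arrays and 74.8, 828.2, 487.8 and 416.6 on control arrays, a log2 difference of -0.38 (SE 0.52). For both, the groups overlapped over most of their range, and pair 1 went against the other pairs. The related Wnt10a had a log2 difference of -0.28 (SE 0.30) and Wnt6 one of -0.14 (SE 0.14). Wnt2 was below the filter.

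The genes that equip ligands for export differed little. Wls, the carrier that takes lipid-modified Wnt proteins to the cell surface, read 20756.2, 19604.7, 22070.4 and 17849.2 on knockout arrays and 19662.4, 22174.5, 21703.4 and 21522.9 on control arrays. The groups overlapped, with knockout array 4 lowest, and the log2 difference was -0.09 (SE 0.10, 95% interval -0.30 to 0.13, limma adjusted p = 0.999). Porcn, the acyltransferase that attaches the lipid, had a log2 difference of 0.06 (SE 0.18).

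**Figure D2:**
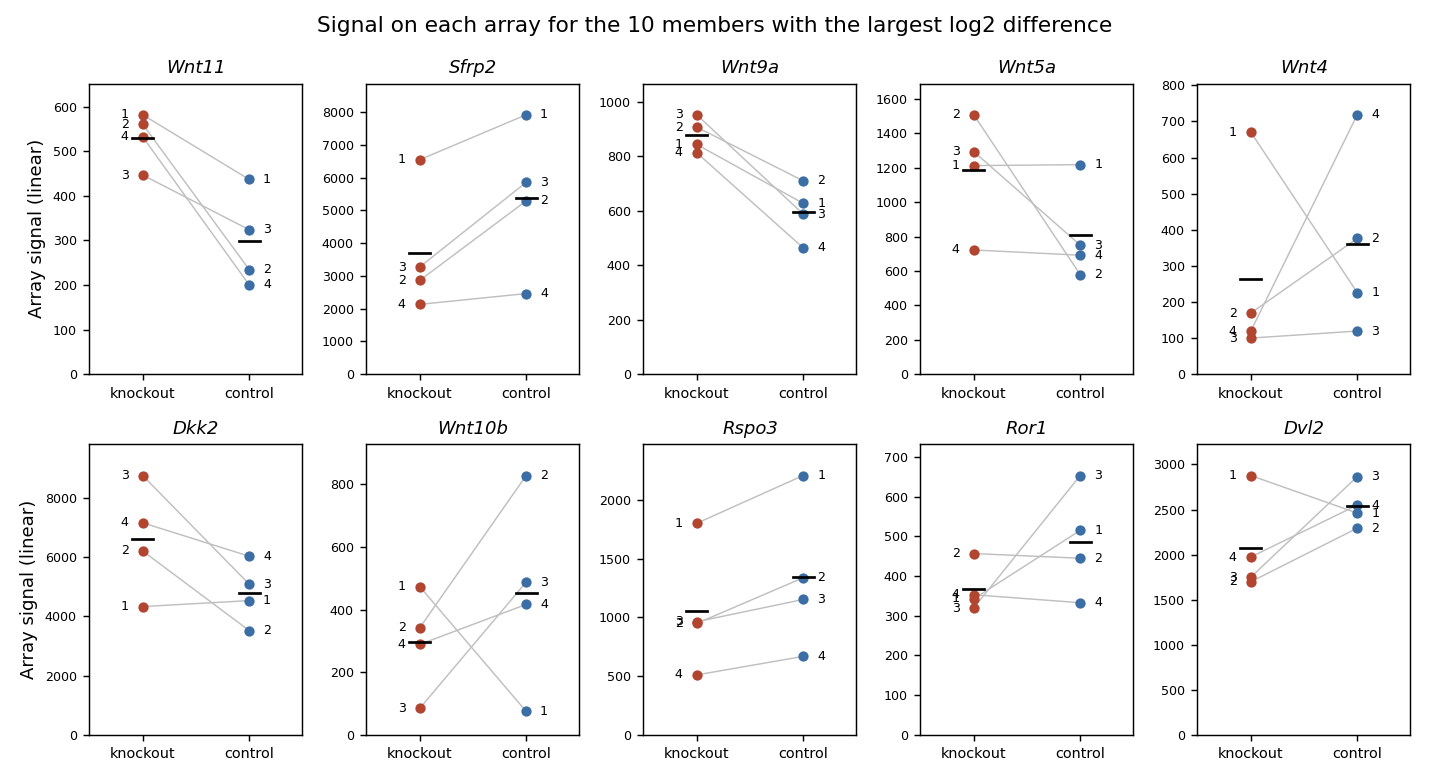
Linear array signal on each of the 8 arrays for the 10 tested members with the largest absolute log2 difference, knockout arrays in red on the left and control arrays in blue on the right. Numbers are replicate numbers, grey lines join same-numbered arrays and black bars are group means. In Wnt11 and Wnt9a the red points all lie above the blue ones, in the other 8 the groups overlap, and in Sfrp2 and Rspo3 every line runs up from knockout to control.

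Frizzled proteins, the membrane-spanning receptors of Wnt ligands, differed little at their brightest probe sets. Of 9 members 8 were tested, 5 had a log2 difference above 0 and 3 below, from -0.09 (Fzd1) to 0.15 (Fzd6), and their 95% intervals together spanned -0.43 to 0.60. Fzd1 read 15322.2, 14047.7, 15519.3 and 12199 on knockout arrays and 17297.2, 13301, 16740.9 and 13489.7 on control arrays. Its 4 odd-numbered arrays were above its 4 even-numbered arrays, with knockout and control arrays among both the high and the low values. The log2 difference of Fzd1 was -0.09 (SE 0.12, limma adjusted p = 0.999), and its dimmer tested probe set gave 0.14. Fzd2, Fzd4, Fzd5 and Fzd8 had 95% intervals within 0.5 of 0 on the log2 scale, and so did Fzd1, whereas those of Fzd3, Fzd6 and Fzd7 reached 0.60, 0.53 and 0.54. Dimmer tested probe sets of Fzd3, Fzd6 and Fzd8 gave log2 differences of -0.40, 0.51 and 0.44, none with an adjusted p under 0.05. Fzd9 was below the filter.

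All 5 co-receptors and alternative receptors had a log2 difference below 0, from -0.32 to -0.01, and 0 passed in either fit. Ror1, a receptor tyrosine kinase-like protein that binds Wnt5a, read 342.5, 456.5, 319.4 and 352.8 on knockout arrays and 514.9, 444.7, 653 and 332.7 on control arrays. The highest control arrays were 3 and 1, control arrays 2 and 4 lay among the knockout arrays, and the log2 difference was -0.32 (SE 0.23, limma adjusted p = 0.999). Ryk, an atypical kinase with a Wnt-binding domain, read 7471.4, 7691.9, 7700.7 and 6993.8 on knockout arrays and 6556, 8440.5, 7399.9 and 8590 on control arrays. The knockout values lay inside the control range, and the log2 difference was -0.05 (SE 0.11, limma adjusted p = 0.999), while its 2 other tested probe sets gave 0.00 and 0.33. For Ror2 the log2 difference was -0.09 (SE 0.20), for Lrp5 -0.19 (SE 0.21) and for Lrp6 -0.01 (SE 0.15).

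Receptor turnover is governed by the ubiquitin ligases Znrf3 and Rnf43, which remove Frizzled proteins from the surface, and by R-spondins, which block them. Rspo3, an R-spondin, read 1801, 948.5, 963.1 and 510.3 on knockout arrays 1 to 4 and 2207.7, 1337.6, 1152.4 and 667.9 on control arrays 1 to 4. Array 1 was highest and array 4 lowest in both groups, so the groups overlapped widely, yet each knockout array was below its same-numbered control array. The log2 difference was -0.33 (SE 0.36, paired SE 0.13, limma adjusted p = 0.999, paired adjusted p = 0.472). In the unpaired fit it was -0.62 without knockout array 1, -0.61 without control array 4, -0.06 without knockout array 4 and -0.07 without control array 1. Leaving out 1 array also leaves its same-numbered array unmatched. The pair values were -0.28, -0.47, -0.24 and -0.34, and the paired fit with a pair left out gave -0.36 to -0.29. Znrf3 had a log2 difference of 0.04 (SE 0.22), and Rnf43 was below the filter.

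Secreted antagonists bind Wnt ligands (the Sfrp family, Frzb and Wif1) or the Lrp5 and Lrp6 co-receptors (Dkk1 and Dkk2), and Dkk3 is a related protein. Of 8 members 7 were tested, 4 above and 3 below 0, and 2 of them, Sfrp2 and Dkk2, had the lowest unadjusted p of all members in the paired fit. Sfrp2, a secreted Frizzled-related protein, read 6543.2, 2859.1, 3268.5 and 2128.6 on knockout arrays 1 to 4 and 7915.8, 5288.2, 5854.6 and 2458 on control arrays 1 to 4. Arrays 1 were highest and arrays 4 lowest in both groups, and every knockout array was below its same-numbered control array. The log2 difference was -0.54 (SE 0.36, limma adjusted p = 0.999, exact permutation p = 0.343) in the unpaired fit, and with the replicate number as a block the SE was 0.12 (paired limma adjusted p = 0.157). Dlk1, a marker of preadipocytes on the stromal list, read 60140.3, 25167.6, 24502.7 and 15603.5 on knockout arrays and 72944.1, 44809, 50687.1 and 26166.8 on control arrays, and its part in the Sfrp2 difference was not tested. It too was below its same-numbered control array on every knockout array, with a log2 difference of -0.72 that passed with the replicate block only (limma adjusted p = 0.999 unpaired and 0.0436 paired). The 12 tested stromal markers did not move as one: 5 had a log2 difference above 0 and 7 below, with Thy1 at 0.22 and higher in all 4 pairs, and Zfp423 at 0.64.

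Dkk2, an antagonist that binds Lrp6, read 4326, 6200.7, 8745.4 and 7150.6 on knockout arrays 1 to 4 and 4526.9, 3516.4, 5081 and 6023.6 on control arrays 1 to 4. Knockout arrays 2, 3 and 4 lay above every control array, whereas knockout array 1 lay below its own control array. Its log2 difference was 0.44 (SE 0.21, 95% interval -0.01 to 0.90, limma adjusted p = 0.999, paired adjusted p = 0.317), with pair values of -0.06, 0.81, 0.77 and 0.24.

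Sfrp1, a secreted Frizzled-related protein known to favour adipogenesis, read 11549.1, 9642.3, 8711.8 and 7032.5 on knockout arrays and 13223.5, 9384.8, 9137.5 and 7709.2 on control arrays. The values followed the replicate number rather than the group, and Sfrp1 differed by -0.09 on the log2 scale (SE 0.18; adjusted p = 0.999, limma), and of its 5 tested probe sets 3 were above and 2 below 0. For Sfrp4 the log2 difference was 0.04 (SE 0.14), for Dkk3 -0.01 (SE 0.13), for Frzb 0.17 (SE 0.27) and for Dkk1 0.03 (SE 0.36), and Wif1 was below the filter.

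Dkk1 is itself a textbook target of beta-catenin and TCF/LEF factors that feeds back on the pathway, and its start region held 2 matches to the motif above, starting 117 and 98 bases before the transcription start. It is shown, with the matches in capitals, because Dkk1 was the tested member with the most matches (RefSeq, GRCm38.p6, chr19:30549447-30549746, minus strand):
Dkk1: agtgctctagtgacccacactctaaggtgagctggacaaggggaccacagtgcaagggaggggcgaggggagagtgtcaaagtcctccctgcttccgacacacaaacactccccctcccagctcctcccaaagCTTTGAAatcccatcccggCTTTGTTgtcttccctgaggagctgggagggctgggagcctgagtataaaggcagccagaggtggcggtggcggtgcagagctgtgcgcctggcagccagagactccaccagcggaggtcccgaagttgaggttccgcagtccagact
The Dkk1 transcript was dim, at 271.6, 282.2, 318.4 and 90.1 on knockout arrays and 112.7, 248.7, 226.5 and 330.6 on control arrays. Knockout array 4 was the lowest and control array 4 the highest of the 8 arrays.

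Some of these antagonists, with the beta-catenin regulator Apc, have been reported in other cells as targets of microRNAs, which Dicer makes. The mature sequences of the microRNAs concerned are shown, from RefSeq (GRCm38.p6), with the seed, bases 2 to 8, in capitals, because the seed is what pairs with a target. The miR-29 family shares the seed of the first 3 and the miR-27 family that of the last 2:
mmu-miR-29a-3p: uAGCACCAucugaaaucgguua
mmu-miR-29b-3p: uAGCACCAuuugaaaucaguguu
mmu-miR-29c-3p: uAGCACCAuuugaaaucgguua
mmu-miR-27a-3p: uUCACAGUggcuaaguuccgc
mmu-miR-27b-3p: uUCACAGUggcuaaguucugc
Of the reported miR-29 targets Dkk1, Kremen2 and Sfrp2, 2 were tested, and their log2 differences were 0.03 for Dkk1 and -0.54 for Sfrp2. The reported miR-27 targets Sfrp1 and Apc had log2 differences of -0.09 and -0.04. None of these 4 passed in either fit, and mature microRNAs were not measured on these arrays.

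Inside the cell, Dishevelled proteins pass the signal from Frizzled to the destruction complex, and Nkd1 and Nkd2 (naked cuticle homologues) inhibit them. Dvl2 read 2877.2, 1697.6, 1748.5 and 1972.9 on knockout arrays and 2460.2, 2293.1, 2864.9 and 2548.4 on control arrays. Knockout arrays 2, 3 and 4 lay below every control array, and knockout array 1 was above every one. Dvl2 had a mean log2 difference of -0.31 (SE 0.17, 95% interval -0.68 to 0.06, limma adjusted p = 0.999, paired adjusted p = 0.538). For Dvl1 the log2 difference was 0.03 (SE 0.11), for Nkd1 -0.17 (SE 0.23) and for Nkd2 0.23 (SE 0.19), and Dvl3 was below the filter.

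Ctnnb1, which encodes beta-catenin, read 47288.7, 48915.7, 49321.2 and 52215.5 on knockout arrays 1 to 4 and 53475.9, 53144.2, 56557.1 and 55600 on control arrays 1 to 4 at its brightest probe set. All knockout arrays lay below all control arrays, the nearest being knockout 4 and control 2, and all 4 pairs were lower in the knockout. The size was small, a difference of -0.15 on the log2 scale (SE 0.08, 95% interval -0.32 to 0.03, limma adjusted p = 0.999, paired adjusted p = 0.546) and an exact permutation p of 0.0286. The other tested Ctnnb1 probe sets gave 0.01 and -0.28, so the difference was not shared by all 3.

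Gsk3b, the kinase that marks beta-catenin for degradation, read 7724.3, 8590.6, 9210 and 7938.9 on knockout arrays and 9110.3, 6809.9, 10515.2 and 7257.2 on control arrays, with the knockout values inside the control range. Its log2 difference was 0.01 (SE 0.14, limma adjusted p = 0.999). Among its 6 tested probe sets 3 were above and 3 below 0, from -0.30 to 0.27. Of the scaffolds, Axin1 had a log2 difference of -0.10 (SE 0.14) and Apc one of -0.04 (SE 0.19).

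Axin2, a scaffold of the destruction complex that is widely used as a readout of beta-catenin signalling, had a log2 difference of -0.09 (SE 0.31). Its signal was 553.8, 559.1, 677.2 and 349.7 on knockout arrays and 452.6, 424.2, 1178.1 and 414.9 on control arrays, where control array 3 alone lay above the knockout range. Among the TCF/LEF factors, Tcf7l1, mostly a repressor of Wnt targets, read 3418, 3821.5, 4236.1 and 4336.5 on knockout arrays and 3222.5, 2901, 3684.6 and 3357 on control arrays. Each knockout array was above its same-numbered control array, and the lowest knockout array, number 1, lay inside the control range. At this probe set, its brightest, the log2 difference of Tcf7l1 was 0.26 (SE 0.13, limma adjusted p = 0.999, paired adjusted p = 0.429). Its other tested probe set gave 0.08, with pair values of 0.08, 0.18, 0.32 and -0.27, so not all pairs were higher there. The log2 differences of Lef1 and Tcf7l2 were 0.29 (SE 0.30) and -0.09 (SE 0.22).

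Most of the variation in these genes followed the replicate number. The number accounted for a median of 59.2% of the sum of squares of a member's log2 values over the 8 arrays and the group for 7.21%, and over all tested genes these medians were 57.4% and 7.08%. The number has more levels than the group, so it takes a larger share even of random variation, and the shares were not corrected for this. The group accounted for more than the number in 7 members: Wnt6, Wnt9a, Wnt11, Ror1, Dvl2, Ctnnb1 and Tcf7l1. In 6 members, Lrp6, Rspo3, Znrf3, Sfrp1, Apc and Tcf7l2, the number accounted for over 90%. For these counts of 7 and 6 the shares of all tested genes were not computed, so neither sets the members apart. Replicate 4 was the lowest of its group in both groups in 17 of 43 members, or 39.5%, against 13.6% of all tested genes. These included the receptors Fzd2, Fzd3, Fzd5, Fzd7, Fzd8 and Lrp5, the antagonists Sfrp1, Sfrp2, Sfrp4 and Dkk3, the ligands Wnt9a and Wnt10a, and Rspo3, Apc, Axin1, Axin2 and Tcf7l2. Replicate 1 was the highest in both groups in 6 members (Wnt10a, Wnt11, Rspo3, Sfrp1, Sfrp2 and Tcf7l2), or 14%, against 12.3% of all tested genes. Replicate 3 was the highest in both groups in 8 members (Fzd3, Fzd4, Fzd7, Lrp6, Ror2, Znrf3, Gsk3b and Axin2), or 18.6%, against 8.56%, and replicate 4 was the highest in both groups in 0 members, against 13.7%.

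Tcf7l2, a TCF factor, showed this most, at 4070.9, 2488.2, 2470.4 and 1961 on knockout arrays and 3984.5, 2726.6, 2738.3 and 2132.9 on control arrays. Replicate 1 stood far above the others in both groups. Wnt10a, a ligand that restrains adipogenesis, read 1877.4, 872.6, 927.5 and 703.5 on knockout arrays and 1643.6, 1595.7, 1276.1 and 729.6 on control arrays. On the same arrays the summed signal of the 4 tested fat cell markers (Fabp4, Pparg, Cebpa and Lpl) was lowest in replicate 1, at 13777.2 on the knockout and 14414.4 on the control array, against 35939, 40601.2 and 37377.5 on the other knockout arrays and 28413.7, 32994.3 and 40283.2 on the other control arrays. Its part in the pattern was not tested.

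**Figure D3:**
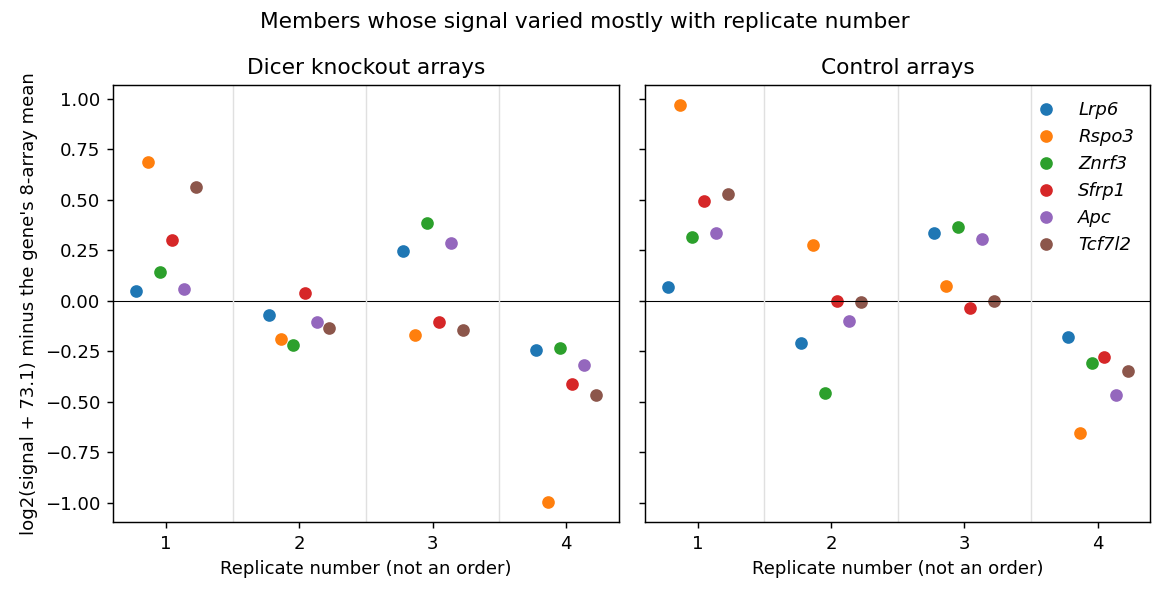
Log2(signal + 73.1) minus the gene's mean over 8 arrays, by replicate number, for the 6 members in which the number accounted for over 90% of the sum of squares, with knockout arrays on the left and control arrays on the right. Points of 1 colour lie at like heights in both panels, and replicate 4 is the lowest in all 6 members on knockout arrays, and on control arrays in all but Znrf3 and Lrp6.

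The odd and even arrays also split some members. All 4 odd-numbered arrays lay above all 4 even-numbered ones in 12 of the 82 tested probe sets of members, or 14.6%, and the reverse held in 0, against 6.93% and 5.25% of all tested probe sets. They belonged to Fzd1, Fzd6, Fzd7, Lrp6, Ror2, Znrf3, Sfrp1, Nkd2, Apc, Gsk3b (2 probe sets) and Tcf7l2. The widest was one of the Gsk3b probe sets, with a log2 difference, odd minus even, of 1.71. Each of the groups holds 2 odd and 2 even arrays, so the split crosses the comparison evenly.

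Pathway genes outside the 50 members were read from a list of other ligands, receptors, regulators and effectors that do not need beta-catenin. Of its 61 tested genes 32 had a log2 difference above 0 and 29 below, with a median of 0.02, and 0 passed in either fit (limma, lowest paired adjusted p = 0.432). An unadjusted p under 0.05 was found in 4 of 61 unpaired and 7 of 61 paired, where the shares over all genes were 3.93% and 10.3%. Lgr4, a receptor for R-spondins, read 3982.6, 7494, 7734.3 and 5669.8 on knockout arrays and 5098.6, 3878.4, 3822.5 and 4483.9 on control arrays. Knockout arrays 2, 3 and 4 lay above every control array and knockout array 1 did not, and Lgr4 differed by 0.48 on the log2 scale (SE 0.19; adjusted p = 0.999, limma).

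Wnt2b, a ligand, was dim and had the largest log2 difference of the list, 0.81 (SE 0.35). Wnt16, another ligand, had a log2 difference of -0.42 (SE 0.18) and Csnk1g1, a casein kinase, one of 0.36 (SE 0.14). The antagonist Sfrp5 and Notum, an enzyme that strips the lipid from Wnt proteins, had log2 differences of -0.61 (SE 0.59) and -0.44 (SE 0.32), each resting mostly on a single pair.

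Textbook targets of beta-catenin other than the members gave 13 log2 differences above and 22 below 0 among 35 tested genes, with a median of -0.03. None passed in either fit (limma, lowest paired adjusted p = 0.0884 for Ccnd1). An unadjusted p under 0.05 was found in 3 of 35 unpaired and 10 of 35 paired, where the shares over all genes were 3.93% and 10.3%. Ccnd1, which encodes the G1 cyclin D1, read 6706.7, 3624, 2160.4 and 3031.9 on knockout arrays 1 to 4 and 5106.1, 2056.9, 1426.3 and 1284.1 on control arrays 1 to 4. Each knockout array was above its same-numbered control array, although the groups overlapped because replicate 1 was highest in both. The log2 difference was 0.74 (SE 0.40, paired SE 0.13).

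Fst, which encodes the activin-binding protein follistatin, read 4260.8, 3129.5, 3275.5 and 2972 on knockout arrays and 2258.8, 2405.8, 2597.1 and 1458.2 on control arrays. The groups did not overlap, and Fst differed by 0.65 on the log2 scale (SE 0.18; adjusted p = 0.999 with limma, paired adjusted p = 0.124). Sox4, a transcription factor of progenitor cells, read 48174.6, 43604.1, 42066.2 and 40300.3 on knockout arrays and 54085.7, 54254.8, 48980.8 and 55308.8 on control arrays. Here too the groups did not overlap, in the opposite direction, and Sox4 differed by -0.29 on the log2 scale (SE 0.09; adjusted p = 0.999 with limma, paired adjusted p = 0.21). Tnfrsf11b, the decoy receptor osteoprotegerin, had a log2 difference of 0.67 (SE 0.25), Ccn4, a matricellular protein, 0.30 (SE 0.23) and Id2, an inhibitor of helix-loop-helix factors, -0.35 (SE 0.20).

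**Figure D4:**
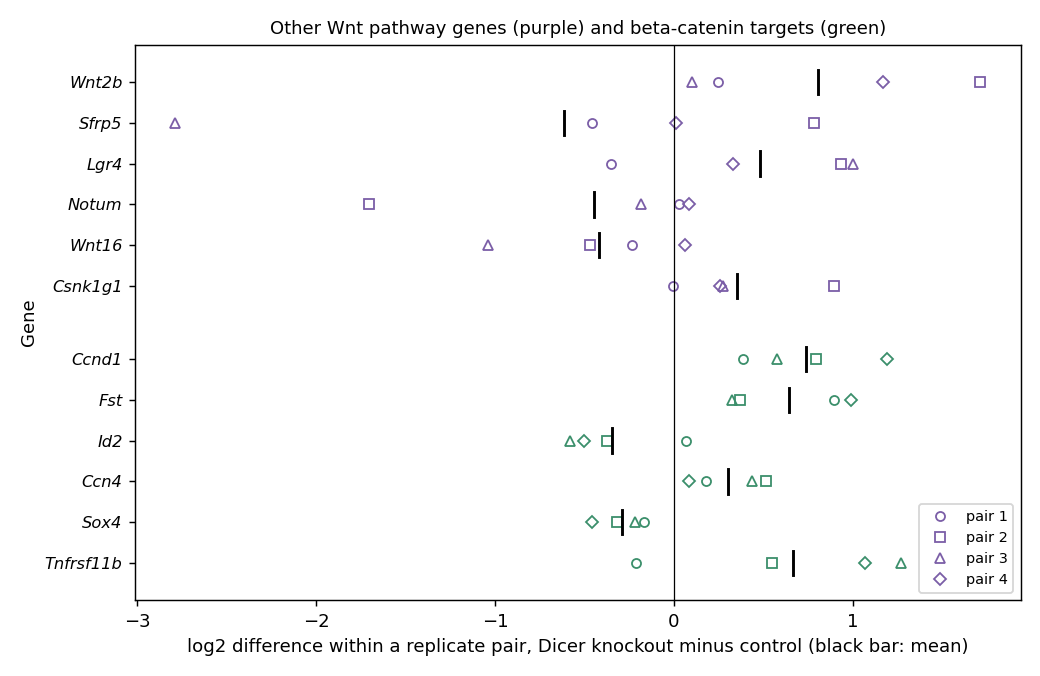
Log2 differences, Dicer knockout minus control, within each of the 4 replicate pairs (open symbols) with their mean (black bars) for 6 other Wnt pathway genes in purple and 6 beta-catenin target genes in green. All 4 pairs lie above 0 for Wnt2b, Ccnd1, Fst and Ccn4 and below 0 for Sox4, while Sfrp5 and Notum each rest mostly on a single pair.

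The intervals of the unpaired fit were narrow for some members at their brightest probe set. There the 95% interval lay within 0.5 of 0 on the log2 scale for 18 of 43 members: Wnt6, Porcn, Wls, Fzd1, Fzd2, Fzd4, Fzd5, Fzd8, Lrp6, Ryk, Sfrp1, Sfrp4, Dkk3, Dvl1, Axin1, Apc, Gsk3b and Ctnnb1. It lay within 1 of 0 for 37, the other 6 being Wnt4, Wnt5a, Wnt10b, Wnt11, Rspo3 and Sfrp2. Other tested probe sets of Fzd1, Fzd5, Fzd8, Ryk, Sfrp1, Axin1, Apc, Gsk3b and Ctnnb1 had intervals that reached beyond 0.5 from 0, the widest being -1.46 to 0.86 for Gsk3b. These intervals are not adjusted for the number of genes.

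The 6 members below the filter that had a probe set stayed dim in both groups at every one of their probe sets. The mean signal was 207.3 on knockout and 130.1 on control arrays for Wnt2, and 125.6 on knockout and 148 on control arrays for Fzd9. The Wnt5b probe sets averaged 105.5 and 121.3 on knockout arrays, against 168 and 155.5 on control arrays. Dvl3 averaged 42.2 on knockout and 39.9 on control arrays, Wif1 41.1 on knockout and 43 on control arrays, and Rnf43 15.2 on knockout and 22.1 on control arrays. They were not tested.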

How the data were processed

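The authors deposited an intensity (MAS5 signal, on a linear scale) for each probe set, made with GCOS 1.3 and MAS5 per the submitters' processing notes, which name no further normalization. The 2% trimmed mean was 1500.01 on every array.

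Signals were taken as log2(signal + 73.1), the 20th percentile of all values, which understates the changes of dim probe sets. After 64 array controls were left out, 27027 of 45101 probe sets were tested, the upper 60% by mean log2 value. The platform annotation gave 1 symbol for 34945 probe sets, several for 932 and none for 9160, and a RefSeq table changed 0 symbols. A gene stands for its brightest tested probe set, and signals of different probe sets are not comparable as transcript amounts. Knockout was compared with control by limma 3.58.1 in R 4.3.3 (mean-variance trend, two-sided, Benjamini-Hochberg over all tested probe sets, threshold 0.05). On simulated unpaired data this fit recovered 44 of 100 changes of 1 on the log2 scale and 85 of 100 changes of 2, with 7 false calls. The simulated noise carried no shared replicate effects, and changes under 1, as seen in every member, were not simulated. Many changes of the size seen in members would thus be missed, and recovery in these data may be lower than simulated. Figures used Python 3.11.15 and matplotlib 3.10.9.

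The labels call the samples biological replicates without naming animals or cultures, so the p-values reflect only how these samples vary, which may be technical. The labels' numbers are shared between the groups. Deviations from group means correlated at 0.341, 0.189, 0.199 and 0.372 in same-numbered arrays 1 to 4, against -0.347 to 0.149 in others, so the numbers were taken as pairs in the paired fit. Values on every array are given for members with an adjusted p under 0.05, the 10 largest absolute log2 differences, groups that do not overlap, a paired p under 0.01, or the 6 brightest control means, and for Dkk1, Axin2, Tcf7l1, Tcf7l2 and Wnt10a, chosen after their values were seen. From the lists of other pathway genes and of beta-catenin targets 6 genes each are named, first those that meet the criteria on adjusted p, overlap or paired p (Ccnd1, Fst, Id2, Ccn4 and Sox4), then those with the largest absolute log2 difference (the other 7). Members and lists were chosen with earlier results of these data known. Alternatives were the replicate block, pseudocounts of 16 and 1, no filter or the upper 40%, median centring, quantile normalization, no trend, array weights, and leaving out each array or pair.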

Additional observations from a re-analysis of the deposited data

Results flagged for a closer look

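Wnt4 on knockout array 1 read 670.6, far from the other knockout arrays, with a gap to the nearest of them of 0.879 of the group's range. It was the only such case among the 32 groups of 4 arrays examined, and chance gives about 1 in 20.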

How the results depend on the processing

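The count of 0 members past the threshold held under all 21 alternatives, with a lowest adjusted p of 0.0861, for Dkk2, reached when pair 1 was left out of the paired fit. The median log2 difference of the members was -0.01 and lay between -0.0718 and 0.0625 with 1 array left out. The count at an unadjusted p under 0.05, 2 in the unpaired fit, was 9 with the replicate block, 5 with array weights, 1 with the upper 40% of probe sets, and 2 to 6 with 1 array left out: 6 without knockout 1 and 4 without control 1 or control 4. In the paired fit it was 4 to 10 with a pair left out. Without pair 1, the paired fit called 1 other pathway gene (Lgr4, log2 difference 0.758, adjusted p = 0.0492) and 1 beta-catenin target (Ccnd1, 0.855, adjusted p = 0.0421), against 0 and 0 with all pairs. Among the members and the named genes of these 2 lists, the replicate block with all pairs changed no call, and it did so for the stromal marker Dlk1 (adjusted p = 0.999 unpaired and 0.0436 paired). Over the whole array the number of probe sets called was 1 unpaired, 13 with the replicate block, and 0 to 80 when a pair was left out.
The sign of some differences turned, small ones and those of Wnt4, Wnt10b and Sfrp5 among the larger ones. For Gsk3b the log2 difference was -0.0175 with median centring, -0.0854 to 0.122 with 1 array left out, -0.0992 to 0.0901 with a pair left out (-0.0313 without pair 4), and -0.00794, -0.0394 and -0.299 at other probe sets. For Sfrp1 it was -0.203 to 0.0608 with 1 array left out and 0.0846, 0.061 and 0.0463 at other probe sets. For Ryk it was -0.122 to 0.00627 with 1 array left out, -0.123 to 0.0369 with a pair left out, and 0.00214 and 0.333 at other probe sets. Other probe sets gave 0.145 for Fzd1 and 0.00874 for Ctnnb1. With a pair left out, Wnt10b reached 0.11 and Sfrp5 0.112 without pair 3, and Wnt4 0.0893 without pair 4. With 1 array left out, the log2 difference kept its sign but moved by over 1.5 times for several named genes, none of them called. Among members these were Sfrp2 (-0.873 to -0.321), Rspo3 (-0.618 to -0.0573), Wnt4 (-0.917 to -0.0887), Wnt10b (-0.897 to -0.00951) and Ror1 (-0.465 to -0.186). Further members were Dvl2 (-0.475 to -0.229), Dkk2 (0.292 to 0.626), Fzd1 (-0.148 to -0.0143) and Wls (-0.133 to -0.0313). In the lists they were Ccnd1 (0.438 to 1.16), Id2 (-0.534 to -0.18), Ccn4 (0.141 to 0.541), Sfrp5 (-1.12 to -0.138), Notum (-0.602 to -0.231) and Wnt16 (-0.533 to -0.277). With a pair left out of the paired fit, the range was -0.657 to -0.433 for Sfrp2 and -0.365 to -0.29 for Rspo3. For Ccnd1 it was 0.586 to 0.855 and for Ccn4 0.235 to 0.377. These were narrower than with 1 array left out, as were those of Dkk2, Fzd1 and Id2. The ranges were wider for Ror1 (-0.452 to -0.133) and Dvl2 (-0.488 to -0.185). So were those of Wnt4, Wnt10b, Wls, Sfrp5, Notum and Wnt16. The cause of these shifts was not tested.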
